A study of Homo sapiens and Mus musculus with 18 samples.

Results

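The MHC class II genes of BL41, a human Burkitt lymphoma cell line, were followed after X-ray and proton irradiation. The members were the rows of the deposited BL41 table whose symbol is 1 of 10: HLA-DRA, HLA-DRB1, HLA-DQA1, HLA-DQB1, HLA-DPA1, HLA-DPB1, HLA-DMA, HLA-DMB, CD74 and CIITA. The rule takes rows by symbol and uses no measured value, although the 10 symbols were proposed with earlier results of these data known. They came to 46 rows of 15069. Several symbols stand on more than 1 row, each under its own Ensembl identifier, and every such row was kept. HLA-DPA1 and HLA-DMA have 8 rows each, HLA-DRA and HLA-DPB1 have 6, HLA-DRB1 and HLA-DMB have 5, HLA-DQA1 and HLA-DQB1 have 3, and CD74 and CIITA have 1. Only 9 of the 46 identifiers are on the primary assembly in GENCODE 29, none of them for HLA-DMB. The other 37 are not, and are called copies here. Some copies hold identical values, so the 46 rows carry 37 distinct profiles. Distinct profiles can still be nearly alike, as those of HLA-DMB ENSG00000226264 and ENSG00000241674 are. Neither the 46 rows nor the 37 profiles are independent of each other.

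RNA sequencing compared 3 groups of 3 BL41 libraries, which were sham controls, an X-ray group (5 Gy, 6 MV accelerator) and a proton group (5 Gy, centre of a spread-out Bragg peak, median linear energy transfer 3.5 keV/µm). All were at passage 5 to 10, had been resuspended 6 h before exposure, and gave RNA 12 h after it, while sham cells stood at room temperature outside the incubator. The study also holds 9 libraries of J3D, a mouse lymphoma line treated the same way. No label states whether the libraries of a group came from different cultures, so their spread, on which every p-value rests, may be technical, and 1 cell line stands for the tumour type.

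MHC class II molecules carry peptides from the endosomal route to the cell surface, where CD4+ T cells read them, and B cells express them constitutively. The α and β chains pair in the endoplasmic reticulum with the invariant chain CD74, and HLA-DM later exchanges the remaining CD74 fragment for peptide. Transcription of these genes runs through a shared promoter module bound by the RFX complex, CREB and NF-Y, on which the coactivator CIITA assembles.

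Promoter sequences are shown first, so that letters matching 2 simple patterns for the module described above can be seen. Stretches of 130 bases, from 150 to 20 bases before the annotated start, were taken from RefSeq promoters on GRCh38.p14 and are written 5′ to 3′ on the gene's strand. RefSeq gave 9 promoters for 8 of the 10 symbols, and HLA-DRA and CIITA had no entry. Capitals mark AGNNACNGA, an X-box pattern, and ATTGG, the Y-box core (CCAAT where it lies on the other strand). Both patterns were chosen with these promoters in view. The 4 promoters that hold both in order are shown with that of CD74, which does not. Those of HLA-DPA1, HLA-DPB1 and HLA-DMB do not hold both in order either and are not shown.
HLA-DRB1, chr6:32589869-32589998, minus strand: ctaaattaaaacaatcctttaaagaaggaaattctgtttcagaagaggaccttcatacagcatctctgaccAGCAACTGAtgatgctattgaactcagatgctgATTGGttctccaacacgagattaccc
HLA-DQA1, chr6:32637256-32637385, plus strand: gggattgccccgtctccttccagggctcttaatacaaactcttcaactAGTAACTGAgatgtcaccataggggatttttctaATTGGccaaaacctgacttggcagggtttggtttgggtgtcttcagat
HLA-DQB1, chr6:32666678-32666807, minus strand: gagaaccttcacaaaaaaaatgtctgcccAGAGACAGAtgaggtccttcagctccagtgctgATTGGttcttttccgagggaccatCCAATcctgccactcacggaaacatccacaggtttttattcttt
HLA-DMA, chr6:32953118-32953247, minus strand: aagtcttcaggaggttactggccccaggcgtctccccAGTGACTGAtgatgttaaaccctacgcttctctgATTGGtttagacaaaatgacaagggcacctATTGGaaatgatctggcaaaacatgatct
CD74, chr5:150412931-150413060, minus strand: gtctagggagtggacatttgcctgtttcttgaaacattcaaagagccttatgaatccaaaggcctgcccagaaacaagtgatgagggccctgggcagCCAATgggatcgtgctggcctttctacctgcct

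In HLA-DRB1 and HLA-DQB1 24 bases separate the patterns, and in HLA-DQA1 and HLA-DMA 25 bases do. Over all 35116 RefSeq promoters of 300 bases, searched on both strands, 15.3% hold AGNNACNGA, 34.6% hold ATTGG, and 0.515% hold both in order within 40 bases. These shares describe how common the letters are. They are no test of the class II promoters, on which the patterns were chosen, and a match does not show binding. Nor does a missing match show that a promoter lacks the module.

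The deposited values are logarithms, read as log2, that the authors centred within each replicate number. They therefore give differences between libraries but no absolute level, and genes cannot be ranked by abundance. The median of all rows was 0.09 higher after X-rays and 0.12 higher after protons than in sham, and the class II changes below should be read against those shifts. In bulk RNA, more cells expressing a gene and more RNA per cell cannot be told apart.

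After protons 25 of the 46 rows rose and 0 fell at a limma adjusted p under 0.05, where 5.91% of all rows rose and 0.903% fell. These 25 rows hold 18 distinct profiles and cover 8 symbols, all except CD74 and CIITA. After X-rays 8 rows rose and 0 fell, where 4.83% of all rows rose and 0.518% fell, and these covered HLA-DRA, HLA-DRB1, HLA-DQA1, HLA-DQB1 and HLA-DPB1. The same 8 rows were among those higher after protons. The median log2 fold change over the 46 rows was 0.34 after X-rays and 0.52 after protons. Once limma was given the replicate number as a block term, 0 class II rows passed in either comparison, and the lowest adjusted p among them was 0.094 for X-rays and 0.122 for protons. That fit also called 0 of all 15069 rows in each, while 16.1% of them had an unadjusted p under 0.05 for X-rays and 18.8% for protons. The calls without the block are thus not kept when the numbers are modelled. The fit without the block treats same-numbered libraries as independent, although the authors centred them together, so its p-values are too small. The words "rose" and "fell" below refer to that fit.

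**Figure D1:**
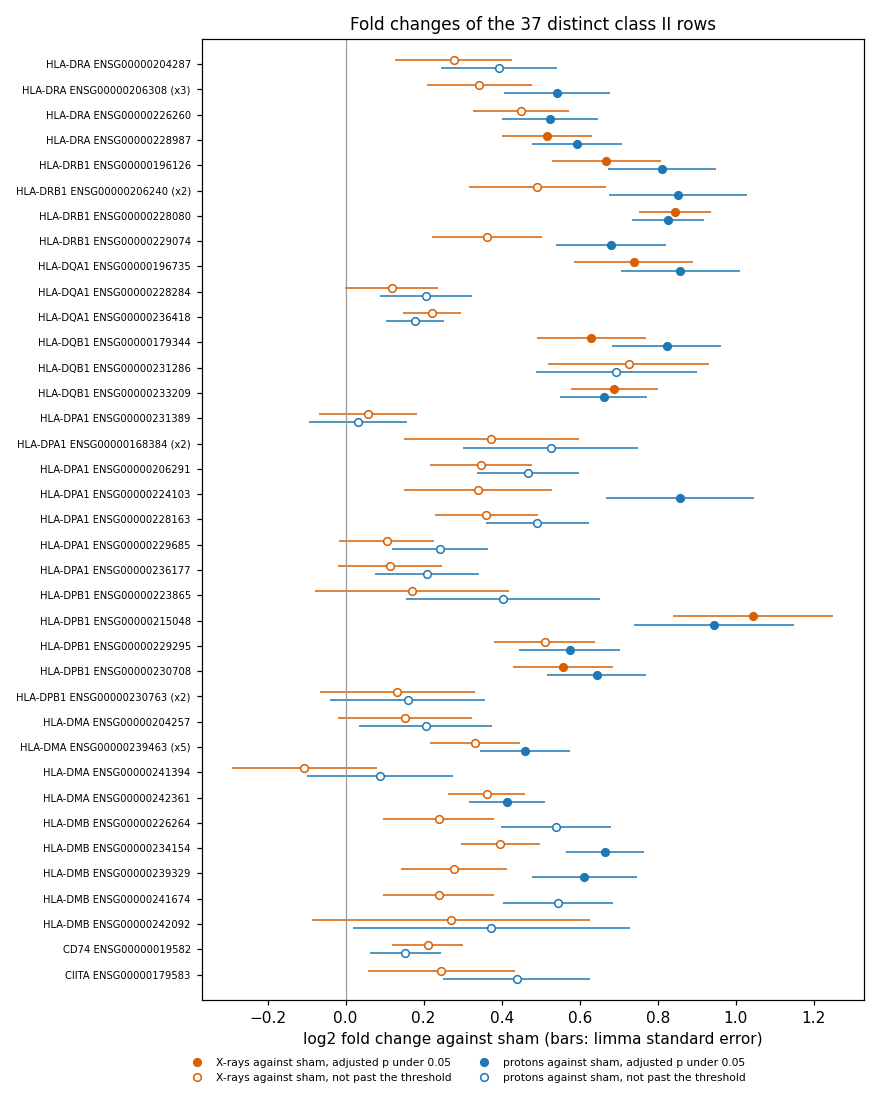
Log2 fold changes against sham for the 37 distinct class II rows, X-rays in orange and protons in blue, with limma standard errors; filled points passed an adjusted p of 0.05 without the replicate block, and a multiplier gives the number of rows with identical values. Most points lie right of 0, from -0.11 to 1.04 for X-rays and from 0.03 to 0.94 for protons.

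The sham library of number 1 stood apart for these genes. It was the lowest of the 9 libraries in 36 of the 46 rows, which include copies with identical values. The share of all rows in which sham 1 was lowest was not counted. The median of sham 1 over the class II rows was -0.58, against -0.17 and -0.22 in sham 2 and sham 3. Over all rows the 3 sham medians were -0.04, -0.13 and -0.05. Without sham 1, limma called 3 class II rows after X-rays and 8 after protons. Within number 1 the median class II difference from sham was 0.56 for X-rays and 0.90 for protons. It was 0.27 and 0.28 within number 2, and 0.19 and 0.37 within number 3, so the direction held within each number while the size was greatest in number 1. Over all rows the same medians were 0.06 and 0.09 within number 1, 0.19 and 0.15 within number 2, and 0.03 and 0.09 within number 3. The class II medians of number 2 thus lay closest to those of all rows, above all for X-rays. The 3 sham libraries lay below all 6 irradiated libraries in 27 of the 46 rows, where 14% of all rows did so.

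**Figure D2:**
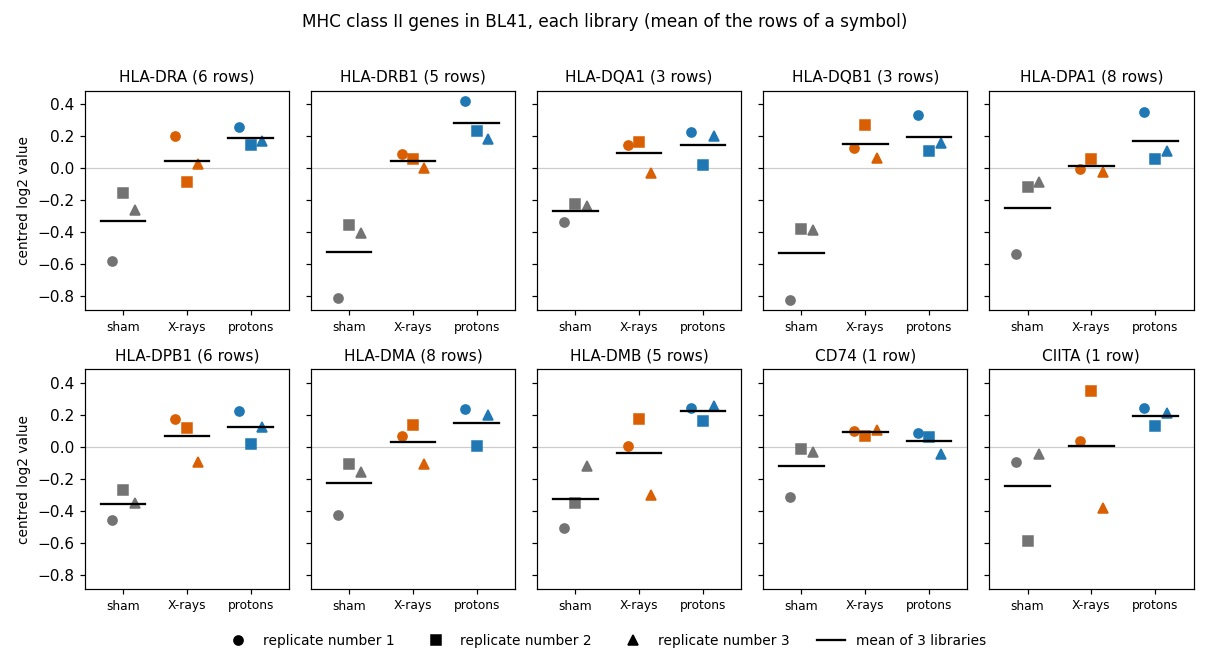
Centred log2 value of each library, averaged over the rows of a symbol, with 1 panel per symbol; marker shape gives the replicate number and the line the mean of 3 libraries. Sham 1 is the lowest point in every panel but CIITA, where sham 2 is lowest at -0.59.

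HLA-DRA and HLA-DRB1 encode the chains of HLA-DR. For the primary HLA-DRB1 row (ENSG00000196126) the centred log2 values were -0.83, -0.31 and -0.47 in sham, 0.10, 0.24 and 0.05 after X-rays, and 0.44, 0.17 and 0.21 after protons. All irradiated libraries were above all sham libraries. It rose by 0.67 ± 0.14 (SE, n = 3 per group) after X-rays and 0.81 ± 0.14 after protons (limma adjusted p 0.0301 and 0.0227). The copy ENSG00000228080 had tighter values, with -0.76, -0.53 and -0.52 in sham, 0.20, 0.22 and 0.31 after X-rays, and 0.31, 0.19 and 0.17 after protons. The groups of sham and irradiated libraries were again apart, and this row had the smallest adjusted p of the class II rows, 0.00831 for X-rays and 0.0129 for protons. All 5 HLA-DRB1 rows rose after protons and 2 of them after X-rays.

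HLA-DRA moved less. Its primary row (ENSG00000204287) had -0.30, -0.07 and -0.40 in sham, 0.34, -0.22 and -0.05 after X-rays, and 0.08, 0.04 and 0.29 after protons. X-ray library 2 lay within the sham range, and neither difference passed (0.28 ± 0.15 and 0.39 ± 0.15, limma adjusted p 0.299 and 0.127). The other 5 HLA-DRA rows rose after protons, by 0.52 to 0.59, and 1 of them, ENSG00000228987, also after X-rays by 0.52 ± 0.12.

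HLA-DQA1 and HLA-DQB1 encode the chains of HLA-DQ. The primary HLA-DQA1 row (ENSG00000196735) had -0.86, -0.40 and -0.46 in sham, 0.38, 0.20 and -0.09 after X-rays, and 0.37, 0.15 and 0.33 after protons. No sham library reached an irradiated one, and the row rose by 0.74 ± 0.15 and 0.86 ± 0.15 (limma adjusted p 0.0301 and 0.024). Its copies differed from it: ENSG00000228284 changed by 0.12 ± 0.12 and 0.21 ± 0.12 and ENSG00000236418 by 0.22 ± 0.07 and 0.18 ± 0.07, and none of these passed. The primary HLA-DQB1 row (ENSG00000179344) had -0.80, -0.38 and -0.47 in sham, 0.11, 0.17 and -0.05 after X-rays, and 0.43, 0.17 and 0.22 after protons. It rose by 0.63 ± 0.14 and 0.82 ± 0.14 (limma adjusted p 0.0373 and 0.022), again with no overlap between sham and irradiated libraries. The copy ENSG00000233209 rose by 0.69 ± 0.11 and 0.66 ± 0.11, and the third row, ENSG00000231286, had 0.73 ± 0.21 and 0.69 ± 0.21 without passing.

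HLA-DPA1 and HLA-DPB1 encode the chains of HLA-DP, and here the copies differed among themselves. The primary HLA-DPA1 row (ENSG00000231389) had -0.22, 0.02 and 0.24 in sham, 0.12, -0.03 and 0.12 after X-rays, and 0.11, 0.03 and -0.01 after protons. The groups overlapped fully, with differences of 0.06 ± 0.13 and 0.03 ± 0.13. Of the 8 rows, ENSG00000224103 alone passed, after protons, with 0.86 ± 0.19 (limma adjusted p 0.0353). For the primary HLA-DPB1 row (ENSG00000223865) sham held -0.15, -0.40 and -0.10, X-rays 0.14, 0.39 and -0.67, and protons 0.33, -0.12 and 0.35. X-ray library 3 was the lowest of all 9, and neither difference passed. The copy ENSG00000215048 had -1.09, -0.63 and -0.32 in sham, 0.52, 0.19 and 0.38 after X-rays, and 0.49, 0.39 and -0.09 after protons. It gave the highest fold change of the 46 rows in both comparisons, 1.04 ± 0.21 and 0.94 ± 0.21 (limma adjusted p 0.0275 and 0.0347). HLA-DPB1 had 2 rows higher after X-rays and 3 after protons.

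HLA-DMA and HLA-DMB encode HLA-DM, the peptide exchanger. No row of either rose after X-rays, while 6 of 8 HLA-DMA rows and 2 of 5 HLA-DMB rows rose after protons. Of the 6 HLA-DMA rows, 5 hold identical values (ENSG00000239463 and its copies) of -0.53, -0.13 and -0.22 in sham, 0.01, 0.15 and -0.04 after X-rays, and 0.31, 0.05 and 0.15 after protons. Sham was below every irradiated library, and the proton difference was 0.46 ± 0.12 (limma adjusted p 0.048). The primary HLA-DMA row (ENSG00000204257) overlapped between groups, with 0.15 ± 0.17 and 0.21 ± 0.17. The HLA-DMB row ENSG00000234154 had -0.41, -0.35 and -0.37 in sham, 0.16, 0.05 and -0.15 after X-rays, and 0.21, 0.19 and 0.47 after protons. It rose by 0.66 ± 0.10 after protons (limma adjusted p 0.0177), and its X-ray difference of 0.40 ± 0.10 missed the threshold at 0.0532.

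CD74, the invariant chain, had -0.31, -0.01 and -0.03 in sham, 0.10, 0.07 and 0.11 after X-rays, and 0.09, 0.06 and -0.04 after protons. Proton library 3 fell inside the sham range, and the differences of 0.21 ± 0.09 and 0.15 ± 0.09 did not pass (limma adjusted p 0.199 and 0.293). CIITA, the coactivator, had -0.10, -0.59 and -0.04 in sham, 0.04, 0.35 and -0.38 after X-rays, and 0.25, 0.13 and 0.21 after protons. Its proton libraries were above its sham libraries, whereas X-ray library 3 lay within the sham range. Neither difference passed, at 0.25 ± 0.19 and 0.44 ± 0.19 (limma adjusted p 0.471 and 0.165).

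When the rows of a symbol were averaged before the fit, 3 of the 10 symbols rose after X-rays, where 5.12% of all symbols did, and 6 after protons, where 5.85% did. HLA-DRB1 (0.57 and 0.80), HLA-DQA1 (0.36 and 0.41) and HLA-DQB1 (0.68 and 0.73) rose after both beams. HLA-DRA (0.52), HLA-DPB1 (0.48) and HLA-DMB (0.55) rose after protons. With the replicate block, 0 symbols passed in either comparison.

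Protons were compared with X-rays directly. The median proton-minus-X-ray difference over the 46 rows was 0.13, against 0.02 over all rows. Of the 46 rows 39 were above 0, or 30 of the 37 distinct profiles, where 54.0% of all rows were. No class II row passed in limma, and the lowest adjusted p was 0.411. At an unadjusted p under 0.05 there were 4 class II rows, where 11.8% of all rows were, and 0% of all rows passed after adjustment. The averaged HLA-DMB differed by 0.26 (95% interval -0.05 to 0.57) and HLA-DRB1 by 0.23 (-0.08 to 0.54), while HLA-DQB1 differed by 0.05 (-0.27 to 0.36) and CD74 by -0.06 (-0.26 to 0.15). These intervals do not show that the beams acted alike. The larger number of rows called after protons is not a difference between beams that passed a test.

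**Figure D3:**
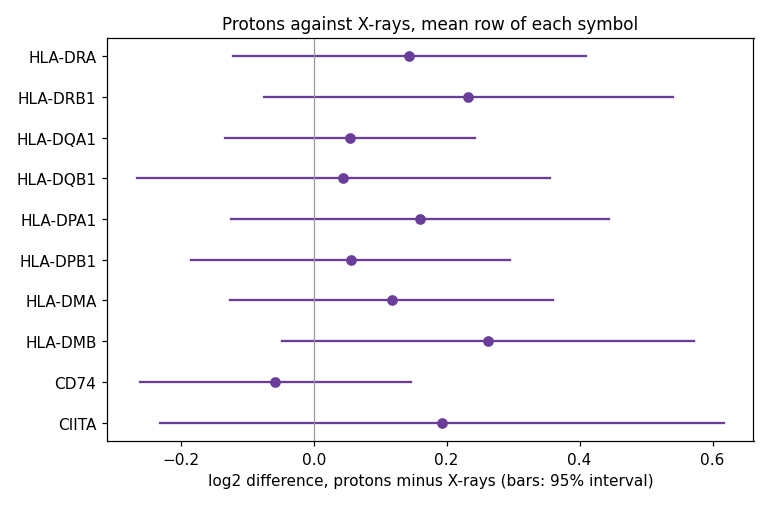
Proton minus X-ray difference on the log2 scale for the mean row of each symbol, with 95% intervals from limma without the replicate block. Every interval includes 0, and HLA-DMB reaches furthest to the right of the HLA genes, to 0.57.

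With both beams pooled against sham, 27 class II rows rose (20 distinct profiles) and 0 fell, where 9.18% of all rows rose and 1.25% fell, with a median of 0.42 over the 46 rows. With the replicate block 0 of them passed, and the lowest adjusted p was 0.059.

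**Figure D4:**
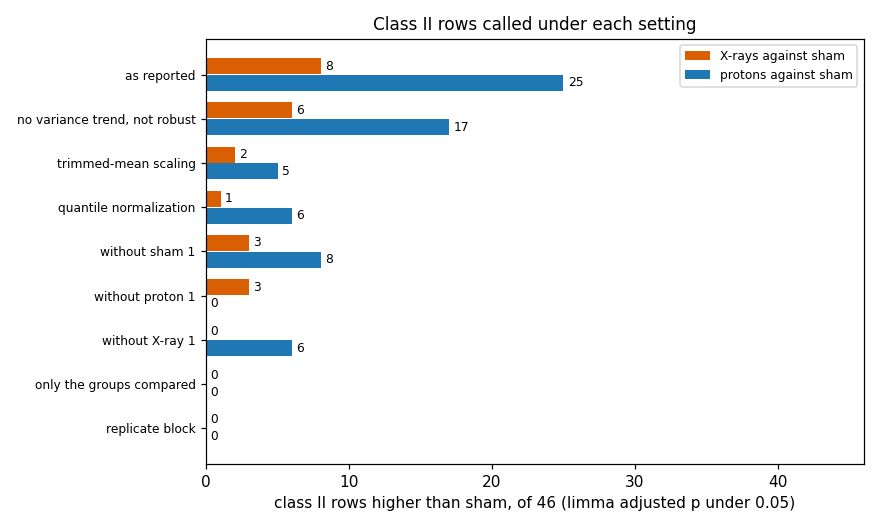
Number of the 46 class II rows higher than sham (limma adjusted p under 0.05) under each setting, X-rays in orange and protons in blue. The count falls from 8 and 25 to 0 and 0 when the replicate block is added or when only the groups compared enter the fit.

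The remaining class II genes in the table were HLA-DOA, HLA-DOB, HLA-DRB3, HLA-DRB4 and HLA-DRB6, on 13 rows. After X-rays 4 of the 13 rose, against 4.83% of all rows, and after protons 5 did, against 5.91%. HLA-DOA, a chain of the HLA-DM inhibitor HLA-DO, had -0.56, -0.21 and -0.44 in sham, 0.22, 0.04 and 0.12 after X-rays, and 0.14, 0.24 and 0.20 after protons on its row ENSG00000204252. It rose by 0.53 ± 0.10 and 0.60 ± 0.10 (limma adjusted p 0.0239 and 0.0194), with sham below every irradiated library. Its other rows differed among themselves. ENSG00000231558 and ENSG00000235744, which hold identical values, rose after both beams, by 0.64 ± 0.10 and 0.51 ± 0.10. ENSG00000232957 rose after protons but not after X-rays, and ENSG00000206292 and ENSG00000230141 passed in neither comparison. HLA-DRB3, a second DR β chain, rose after protons by 1.16 ± 0.22 on ENSG00000196101, which is not on the primary assembly. The X-ray difference of that row, 0.62 ± 0.22, did not pass (limma adjusted p 0.122). The β chain genes are alike in sequence, and in GENCODE 29 transcripts 9.92% of the 50-base windows of HLA-DRB1 also occur in another gene, so their reads may be divided between rows. Those other genes were HLA-DRB5, HLA-DRB6 and HLA-DPB1, so windows shared with the copies of HLA-DRB1 itself are not counted in this share.

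Of the 14 factors of the class II promoter, 0 passed after X-rays or after protons alone, where 4.83% and 5.91% of all rows rose. With both beams pooled 1 of them, RFX5, rose, where 9.18% of all rows did. RFX5, the DNA-binding subunit of the RFX complex, had differences of 0.31 ± 0.08 and 0.28 ± 0.08 after the single beams (limma adjusted p 0.0607 and 0.0677) and rose by 0.29 ± 0.07 in the pooled comparison (limma adjusted p 0.0326, and 0.132 with the replicate block). On the interferon-γ route to CIITA, JAK2, a receptor-bound kinase, rose after X-rays by 0.46 ± 0.10. Its proton difference of 0.33 ± 0.10 did not pass (limma adjusted p 0.0683). The transcription factor IRF1 differed by -0.01 and -0.16 without passing. Of 12 B-cell regulators of CIITA, among them SPI1, IRF4 and PRDM1, 0 passed after either beam alone. Of all rows, 4.83% rose and 0.518% fell after X-rays, and 5.91% rose and 0.903% fell after protons. With both beams pooled 2 of the 12 regulators fell, where 1.25% of all rows did. These were EZH2, a histone methyltransferase, at -0.22 ± 0.06 and TCF3, a B-lineage transcription factor, at -0.36 ± 0.09 (limma adjusted p 0.0459 and 0.0429), named after their values were seen. Among 15 genes of peptide supply 3 rose after each beam, where 4.83% of all rows rose after X-rays and 5.91% after protons. CTSD, an endosomal protease, rose after both, by 0.71 ± 0.14 and 0.79 ± 0.14, whereas CTSS, which trims CD74, differed by -0.05 and 0.08. Of 13 costimulation and adhesion genes 3 rose after X-rays and 2 after protons, against the same 4.83% and 5.91% of all rows. TNFRSF14, a receptor of the TNF family, rose after both, by 0.53 ± 0.07 and 0.46 ± 0.07, and CD274, the PD-1 ligand, by 0.80 ± 0.12 after X-rays, with 0.13 ± 0.12 after protons. On the 63 rows of 20 class I presentation genes, 6 rose after X-rays (4.83% of all rows) and 9 after protons (5.91% of all rows), among them rows of HLA-B, HLA-F and the peptide transporter TAP2. Of 3 genes that regulate class II turnover or partner with it at the surface, 0 passed after either beam alone, against the same 4.83% and 5.91% of all rows that rose. CD9, a tetraspanin, fell with both beams pooled (-0.47 ± 0.12, limma adjusted p 0.0441), where 1.25% of all rows fell. It was also named after its value was seen. None of these lists had a row past the threshold with the replicate block.

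B-cell markers gave 1 of 17 higher after X-rays and 1 higher after protons, which is near the 4.83% and 5.91% of all rows that rose. After protons 1 of the 17 was lower, where 0.903% of all rows fell. CD72, a B-cell coreceptor, rose after both and MME, the germinal-centre marker CD10, fell by 0.52 after protons. The X-ray difference of MME, -0.43, did not pass (limma adjusted p 0.0516). Few markers of other cell types were among the rows analysed: 2 of 18 myeloid and dendritic, 3 of 14 T-cell and NK-cell, and 5 of 15 stromal, epithelial and erythroid markers. The 2 myeloid and dendritic markers were CD163 and CD1C. CD163, a macrophage scavenger receptor, had -0.09, -0.62 and -0.64 in sham, 0.25, 0.01 and 0.30 after X-rays, and 0.03, 0.13 and 0.22 after protons. It rose by 0.64 ± 0.15 after X-rays (limma adjusted p 0.0456), and its proton difference of 0.58 ± 0.15 did not pass (0.0533). CD1C, a lipid-presenting molecule of dendritic cells that some B cells also express, differed by 0.84 ± 0.39 and 1.48 ± 0.39 without passing (limma adjusted p 0.229 and 0.0519). The defining markers CD14, CD68, LYZ and ITGAX were not among the rows analysed here. The part of other cells in the class II changes was not tested.

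Across the 9 libraries the averaged classical class II symbols varied together, and CIITA followed them less closely. Pearson's r with the mean of the other classical genes was 0.98 for HLA-DRB1, 0.97 for HLA-DQB1, 0.82 for CD74 and 0.54 for CIITA, over libraries that share their groups and their centring. The non-member rows closest to the classical mean were WBP1L (r 0.990), IFT46 (0.980), UCHL1 (0.980), RP11-126K1.6 (0.980) and MED8 (0.977). Of 15023 non-member rows 221 had r over 0.9, and the median r over all non-member rows was 0.31. In J3D the table held 1 mouse counterpart, H2-DMa, which differed from sham by 0.09 ± 0.14 after X-rays and -0.02 ± 0.14 after protons, and limma called 0% of J3D rows in either comparison.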

How the data were processed

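TopHat2 and the human build hg19 are named in the submitters' processing notes. Not given in the sources used here are counting tool, annotation, normalization and strand setting. The authors deposited centred logarithms, whose base is unstated and was taken to be log2; a different base would rescale all fold changes but no test. The centre of a row within each replicate number is an average over 4 libraries, and 3 of them are used here: where values were tied at the lowest (within 1e-06), the other library was implied to lie at that value for 55.4 to 60.7% of rows and below it for 0. Sequencing depth is unknown, and precision rests on the spread between libraries.

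Values were fitted as deposited with limma 3.58.1 (R 4.3.3, statmod 1.5.0), with a mean per group, a variance trend and robust moderation. P-values were Benjamini-Hochberg adjusted over all 15069 rows, with a threshold of 0.05, and "rose" and "fell" are used of rows past it. The main fit has no replicate block, with 6 residual degrees of freedom against 4 with it. On simulated data centred in the same way, the fit without the block made more false calls than its threshold allows and the blocked fit did not. Same-numbered libraries correlated at -0.452 to -0.117, a range that the centring itself biases, and no label explains the numbers. Exact permutation tests cannot go below 0.1 for 3 against 3 libraries and are not used for calls.

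Members and gene lists were chosen with earlier results of these data known. The rule for names allowed any member row (those not named are covered by counts and the plot of fold changes), up to 4 rows past the threshold per other list, 10 fixed genes and the 5 rows most alike. EZH2, TCF3, CD9 and CD1C were added after their values were seen. A result under this rule is not reported here. Settings tried were trimmed-mean scaling (20%), quantile normalization, a filter on low values, no variance trend, only the groups compared, the replicate block, 1 row per symbol and each library left out. Added after the data were seen were the block with trimmed-mean scaling, each replicate number left out, identical rows counted once, and primary-assembly identifiers only. Tables and plots used Python 3.11.15, pandas 2.3.3, scipy 1.17.1 and matplotlib 3.10.9.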

Additional observations from a re-analysis of the deposited data

How the results depend on the processing

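Counts are given for X-rays, protons and both beams together against sham, in that order. Class II rows called went from 8, 25 and 27 to 2, 5 and 8 with trimmed-mean scaling, 1, 6 and 7 with quantile normalization, 3, 6 and 5 of 10 with 1 row per symbol, and 3, 3 and 3 of 9 with primary-assembly identifiers. They were 0, 0 and 0 with the replicate block, alone or with trimmed-mean scaling, and 0, 0 and 0 without the libraries of number 1, 2 or 3. With only the groups compared in the fit, 0 were called for either beam. Counting identical rows once gave 8, 18 and 20. Leaving out 1 library gave 0 to 7 class II rows for X-rays, 0 to 18 for protons and 9 to 24 for both. For X-rays 0 remained without X-ray 1, and for protons 0 without proton 1, 2 or 3. The X-ray count was 1 without X-ray 2, 2 without X-ray 3, sham 3 or proton 2, and 3 without sham 1, proton 1 or proton 3. The proton count was 6 without X-ray 1, 8 without sham 1, 11 without sham 3 and 14 without X-ray 2. The count for both beams was 9 without sham 1, X-ray 1, proton 1 or proton 3, 10 without proton 2, 12 without sham 3 and 13 without X-ray 2. Over all rows the counts of 806, 1027 and 1572 became 335, 343 and 756 with trimmed-mean scaling, 129, 533 and 556 with quantile normalization, 0, 0 and 7 with the replicate block and 0, 0 and 0 with the block and trimmed-mean scaling. They were 0, 0 and 0 without number 1, then 3, 1 and 6 without number 2, then 0, 0 and 0 without number 3. With only the groups compared they were 0 and 0. Leaving out 1 library gave 0 to 808, 0 to 710 and 487 to 1460. Between beams the count over all rows was 0, with 1 under quantile normalization and 0 to 1 with 1 library left out. The median class II fold change kept its sign under every setting run for the comparisons with sham, and the cause of the lost calls was not tested.

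Reversals of the log2 fold change were found for the rows below, none of them past the threshold in the main fit. Not all of their differences were small: HLA-DMB ENSG00000242092 had 0.27 after X-rays and 0.37 after protons, with an SD of 0.72 between sham libraries. HLA-DPA1 ENSG00000231389 had -0.0381 with quantile normalization, -0.0404 with trimmed-mean scaling and the block with that scaling, -0.0818 without number 1, -0.0585 to 0.17 over single libraries left out for X-rays. HLA-DPB1 ENSG00000223865 had -0.143 without number 2, -0.0496 to 0.483 over single libraries left out for X-rays. HLA-DMA ENSG00000241394 had 0.0319 without number 3, -0.271 to 0.0642 over single libraries left out for X-rays. HLA-DPA1 ENSG00000229685 had -0.0446 without number 1, -0.0443 to 0.187 over single libraries left out for X-rays. HLA-DPA1 ENSG00000236177 had -0.0594 without number 1, -0.0519 to 0.203 over single libraries left out for X-rays. HLA-DMB ENSG00000242092 had -0.289 without number 2, -0.0264 to 0.669 over single libraries left out for X-rays. HLA-DPB1 ENSG00000230763 and its identical copy had -0.0504 to 0.231 over single libraries left out for X-rays. HLA-DQA1 ENSG00000228284 had -0.0252 without number 2 for X-rays. HLA-DMA ENSG00000204257 had -0.0466 without number 2 for X-rays. CIITA ENSG00000179583 had -0.10 without number 2 for X-rays. HLA-DPA1 ENSG00000231389 had -0.0714 with quantile normalization, -0.0833 with trimmed-mean scaling and the block with that scaling, -0.116 without number 1, -0.0847 to 0.144 over single libraries left out for protons. HLA-DMA ENSG00000241394 had -0.0175 with quantile normalization, -0.0266 with trimmed-mean scaling and the block with that scaling, -0.0835 without number 3, -0.0513 to 0.201 over single libraries left out for protons. HLA-DPB1 ENSG00000230763 and its identical copy had -0.12 without number 3, -0.0237 to 0.257 over single libraries left out for protons. HLA-DPA1 ENSG00000236177 had -0.0349 without number 1 for protons. HLA-DMB ENSG00000242092 had -0.0113 without number 2 for protons. HLA-DPA1 ENSG00000231389 had -0.0548 with quantile normalization, -0.0619 with trimmed-mean scaling and the block with that scaling, -0.0989 without number 1, -0.0716 to 0.157 over single libraries left out for both beams. HLA-DMA ENSG00000241394 had 0.141 without number 2, -0.0912 to 0.0865 over single libraries left out for both beams. HLA-DPA1 ENSG00000236177 had -0.0471 without number 1, -0.0042 to 0.251 over single libraries left out for both beams. HLA-DPB1 ENSG00000230763 and its identical copy had -0.0526 without number 3, -0.0371 to 0.244 over single libraries left out for both beams. HLA-DPA1 ENSG00000229685 had -0.0122 without number 1 for both beams. HLA-DMB ENSG00000242092 had -0.15 without number 2 for both beams.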
